A study of Mus musculus with 15 samples.

Results

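The genes that make, carry and inactivate steroid hormones were followed in mouse cumulus cells, the somatic cells that enclose the oocyte, across 3 stages of oocyte development. The list held 10 genes, Star, Cyp11a1, Fdx1, Fdxr, Hsd3b1, Akr1c18, Cyp17a1, Cyp19a1, Hsd17b1 and Sult1e1. They were found by gene symbol in the authors' table of present probes, where 12 of 20855 probes and 10 of 15059 named genes belonged to the list. Star and Fdx1 had 2 probes each, and the array carried no further probe of these genes. Probes that rose well above background in 4 of the 5 arrays (80%) or more at each of the stages were called valid, and 8 of the 10 genes had such a probe. Star missed this at NC1, where its brighter probe was seen in 2 of 5 arrays and its other probe in none, and Sult1e1 missed it at NC1 (0 of 5) and at C1 (1 of 5). They are described separately with the number of arrays that saw them.

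All cells came from B6CBAF1/J mice, with 5 arrays per stage and 15 in all. NC1 cells were pipetted off unexpanded complexes that had been punctured out of large follicles of 3-week-old juvenile mice. The labels give their prophase I oocytes as incompetent for development. C1 cells were taken in the same way from adults of 8 weeks, whose prophase I oocytes have the capacity for development. For C2, superovulated 8-week-old adults gave expanded complexes from the oviduct with oocytes at metaphase II, and hyaluronidase freed the cells. Between NC1 and C1 the stage cannot be told apart from age, and between C1 and C2 it cannot be told apart from the hormone treatment, the site of collection and the enzyme. Each array held pooled cells, so p-values measure the spread between pools, and fewer cells of a type cannot be told apart from less RNA per cell.

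Steroid synthesis begins when STAR carries cholesterol to the inner mitochondrial membrane. There CYP11A1 cuts the side chain to give pregnenolone, with electrons that FDXR takes from NADPH and FDX1 hands on. HSD3B1 turns pregnenolone into progesterone, which AKR1C18 reduces to an inactive 20-alpha-hydroxy form. CYP17A1 makes androgens, mainly in theca cells of the follicle wall, CYP19A1 (aromatase) turns androgens into oestrogens, HSD17B1 raises the potency of oestrogens by reduction, and SULT1E1 inactivates them by adding sulfate. In the follicle, granulosa cells are known for oestrogen synthesis before the LH surge and for progesterone synthesis after it.

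Values are log2 signals minus each array's median over its valid probes, so 0 is the median probe and 1 unit is a doubling in signal. Levels of different probes are not compared, since probes differ in brightness. A change was called at an adjusted p under 0.01 in limma, two-sided, with the Benjamini-Hochberg adjustment over all 17324 valid probes. Granulosa and cumulus markers were seen at all stages (7 of 8 in every array at NC1, 8 of 8 at C1 and 7 of 8 at C2, where Kitl was seen in no array). A pair of C1 arrays stood apart from the others, as described next. Some results of the listed steroidogenic genes are given with and without them, and those of other gene lists only with all arrays.

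C1 replicate 4 showed 101 probes of 91 genes that were well above background in all 5 C2 arrays, in no NC1 array and in no other C1 array, while each of the other C1 arrays showed at most 1 such probe. Genes of the ovulatory response, chosen after the values of Sult1e1 were seen, were among those that separated it. Tnfaip6, which builds the matrix of the expanding cumulus, gave -3.53, -3.77, -2.90, 2.70 and -3.25 in C1 replicates 1 to 5, against 3.75 to 4.78 at C2. Ptgs2, the inducible prostaglandin synthase, was at -1.88 in C1 replicate 4, was not well above background in the other C1 arrays, and lay between 0.66 and 1.56 at C2. Areg was seen at C1 only in replicate 4 (-2.37). The others chosen separated it less cleanly. Ereg was at 1.19 there but was also well above background in C1 replicates 1 and 3 (-4.36 and -2.57). Runx1 was seen in all C1 arrays, at 1.16 in replicate 4 and -0.32 to 0.52 in the others. C1 replicate 4 also had the most gene probes well above background of the 15 arrays (24496, against 18368 to 22299 in the others). Its lowest signal well above background was 3.88 in log2 before scaling, against 5.09 to 6.66 in the other arrays. How far this lower detection limit adds to its counts of probes was not tested. C1 replicate 3 was the lowest C1 array for 7 of 7 genes of a corpus luteum list, as described below. Its lowest signal well above background (6.66) was the highest of the 15 arrays, and the bearing of this on its values was not tested.

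The regulatory sequences at the start sites of the genes with the largest called change in each direction, Akr1c18 upward and Cyp19a1 downward, are shown with the matches to 6 short motifs in capitals. RefSeq gave a promoter of 300 bases (250 before and 50 after the start, build GRCm38.p6) for 7 of the 10 genes, with 10 start sites in all. Star, Cyp17a1 and Hsd17b1 had no entry. On both strands the search was for AAGGTCA, read by NR5A1 and NR5A2, for TGACGTCA, read by CREB, for TTGCNNAA, read by C/EBP factors, for TGTGGT, read by RUNX factors, for AGATAA, read by GATA factors, and for TATAAA, the core promoter box. The promoter of Akr1c18 lies at chr13:4150597-4150896 on the minus strand and held none of them. Cyp19a1 has 3 start sites on the minus strand, at chr9:54268115-54268414, chr9:54228865-54229164 and chr9:54193694-54193993, and the array does not tell which of them was in use.
Akr1c18: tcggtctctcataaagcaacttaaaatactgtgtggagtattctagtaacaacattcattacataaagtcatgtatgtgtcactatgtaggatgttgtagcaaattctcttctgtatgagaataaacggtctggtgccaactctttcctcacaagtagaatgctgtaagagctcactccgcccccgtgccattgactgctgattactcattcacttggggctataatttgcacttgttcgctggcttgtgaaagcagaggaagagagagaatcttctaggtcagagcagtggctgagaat
Cyp19a1 start 1: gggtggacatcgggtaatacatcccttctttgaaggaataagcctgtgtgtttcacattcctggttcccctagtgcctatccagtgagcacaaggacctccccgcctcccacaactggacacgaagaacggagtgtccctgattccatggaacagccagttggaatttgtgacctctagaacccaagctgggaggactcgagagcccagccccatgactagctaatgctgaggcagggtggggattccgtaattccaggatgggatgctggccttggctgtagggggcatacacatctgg
Cyp19a1 start 2: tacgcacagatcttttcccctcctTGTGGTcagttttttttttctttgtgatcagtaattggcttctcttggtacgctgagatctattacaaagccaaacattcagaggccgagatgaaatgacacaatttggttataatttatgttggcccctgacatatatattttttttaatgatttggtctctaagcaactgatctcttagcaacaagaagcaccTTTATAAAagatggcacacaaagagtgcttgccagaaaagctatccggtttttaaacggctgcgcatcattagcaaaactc
Cyp19a1 start 3: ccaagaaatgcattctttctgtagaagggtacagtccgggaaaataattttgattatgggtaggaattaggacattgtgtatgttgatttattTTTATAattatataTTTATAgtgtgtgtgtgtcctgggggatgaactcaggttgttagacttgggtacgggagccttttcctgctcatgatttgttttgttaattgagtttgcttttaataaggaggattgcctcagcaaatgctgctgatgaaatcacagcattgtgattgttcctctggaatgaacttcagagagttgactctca

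At start 2 of Cyp19a1 the RUNX letters began 226 bases before the start site, and TATAAA matched on both strands in overlapping positions that began 31 and 29 bases before it. At start 3 TATAAA matched on the minus strand at 157 and 143 bases before the start, and start 1 held no match. Among the promoters not printed, Cyp11a1 held a RUNX match at 1 start site and a C/EBP match at the other, Hsd3b1 held a GATA match, Sult1e1 held an NR5A match, and Fdx1 and Fdxr held none. Of 32851 promoters of this length in the table, 4.72% held the NR5A letters, 1.79% the CREB, 10.8% the C/EBP, 16.8% the RUNX, 11.2% the GATA and 13.6% the TATA letters. A match is a description of these letters and no match concerns only this window.

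Setting C1 against NC1 asks how cumulus cells of competent prophase I oocytes differ from those of incompetent ones. Genes of the mitochondrial step and Akr1c18 were higher at C1, whereas the listed genes for progesterone, androgen and oestrogen synthesis did not pass the test. Of the 8 valid genes, 4 were called and all of these were higher (Cyp11a1, Fdx1, Fdxr and Akr1c18). Over all valid probes, 2.52% were called in this comparison, 1.75% higher and 0.768% lower. Hsd3b1, Cyp17a1, Cyp19a1 and Hsd17b1 were not called. Outside the list, the related dehydrogenases Hsd3b6 (1.11) and Hsd17b7 (2.55) were called higher at C1, as given below.

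Cyp11a1 signals were -0.64, -1.79, -0.96, -1.24 and -1.07 at NC1, and 4.71, 4.39, 3.49, 3.99 and 5.00 at C1. The groups did not overlap, and the lowest C1 array was replicate 3. The change was 5.46 ± 0.27 (SE, n = 5 per stage), or 43.9-fold, with an adjusted p of 3.24e-09. Only 3 of the 17324 valid probes had a higher change. Of the C1 arrays, replicate 5 alone lay within the range that Cyp11a1 reached at C2 (4.74 to 5.56), and the other 4 lay below it.

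The redox partners of CYP11A1 moved unequally. Fdx1 signals were 3.51, 3.61, 3.90, 3.45 and 3.66 at NC1, and 6.47, 6.24, 6.36, 6.12 and 6.42 at C1. This was among the tightest of the changes, with an SD of 0.17 at NC1 and 0.14 at C1, and came to 2.70 ± 0.10 on the log2 scale (6.49-fold, adjusted p = 2.14e-10). The other Fdx1 probe gave 2.72 ± 0.11. Fdxr signals were 3.57, 3.72, 4.09, 4.13 and 4.18 at NC1, and 5.05, 4.45, 4.68, 4.48 and 4.91 at C1. Its groups did not overlap and its change was 0.78 ± 0.15 (1.71-fold, adjusted p = 0.0041). The call for Fdxr was lost in 12 of 32 other settings, among them the median over all gene probes (0.67, adjusted p = 0.164), spike-in scaling (0.91, adjusted p = 0.118) and the fits without NC1 replicate 1, NC1 replicate 2, C1 replicate 1 or C1 replicate 5 (0.69, 0.72, 0.69 and 0.73). Over the alternatives its adjusted p ranged from 0.00106 to 0.165. Within each array, Fdx1 minus Fdxr was -0.31 ± 0.27 (SD, n = 5) at NC1 and 1.61 ± 0.14 at C1, a difference that scaling by a constant per array cannot move.

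Akr1c18 was near the limit of detection in juvenile cells, with signals of -4.06 (not well above background), -3.48, -4.32, -3.45 and -3.07 at NC1. At C1 it gave 1.96, 1.44, 0.49, 1.30 and 4.41. The groups did not overlap, and C1 replicate 5 stood above the other C1 arrays by more than the whole span of those. The change was 5.59 ± 0.51 (48.3-fold, adjusted p = 2.96e-06), which 1 valid probe exceeded. Akr1c18 belongs to a family of close relatives, and how far its probe also binds their transcripts was not tested. Of these, Akr1c12, Akr1c13 and Akr1c14 were valid and did not pass the test (changes of -0.26, 0.35 and -0.02), and Akr1c6 and Akr1c21 were seen in no array.

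**Figure D1:**
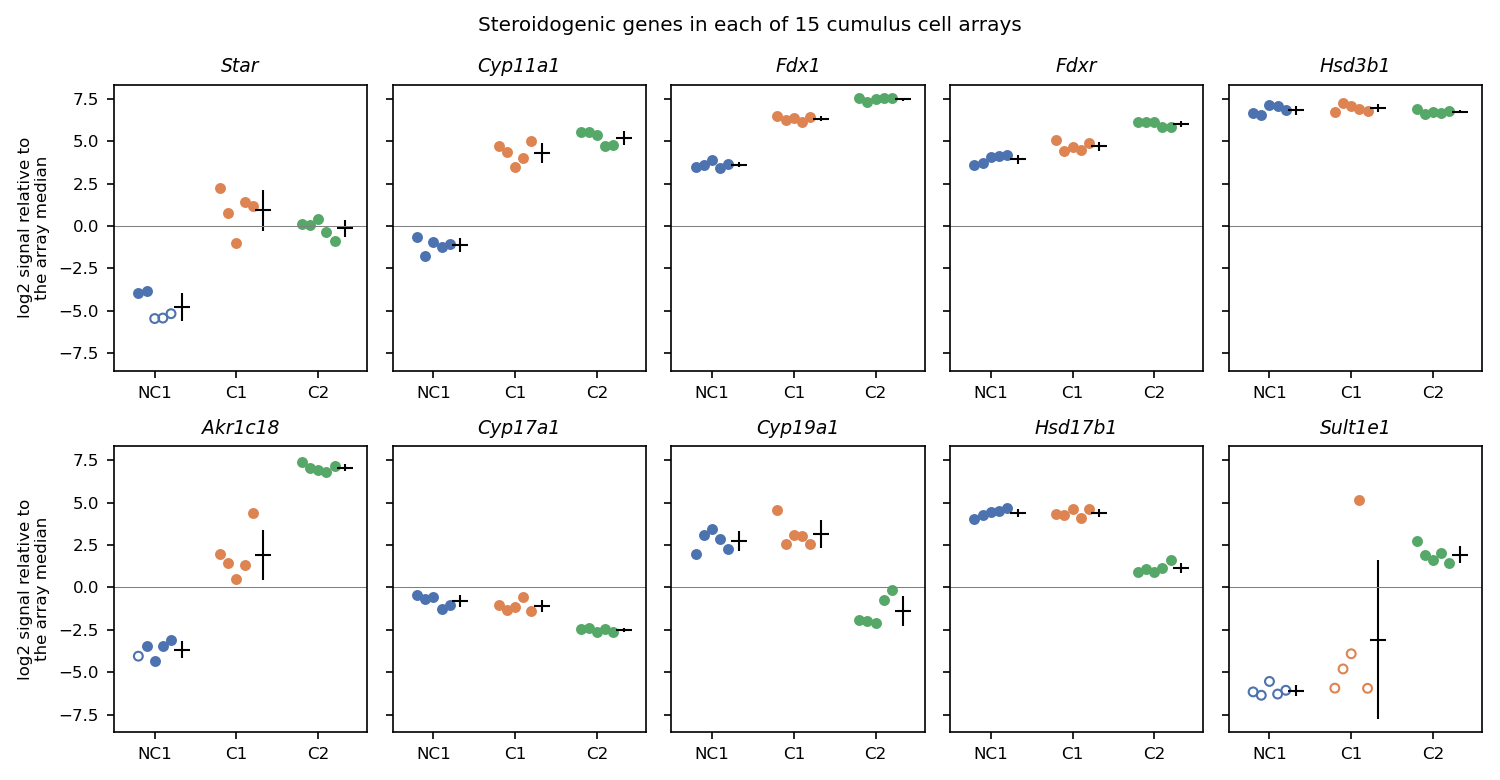
Log2 signal relative to the array median (vertical axis) of the 10 steroidogenic genes in each of the 15 arrays, by stage. Filled points were well above background and open points were not, and the black marks give the mean and SD of the 5 arrays. Cyp11a1 and Akr1c18 have no overlap between NC1 and C1, Hsd3b1 overlaps at all stages, and Sult1e1 is open at C1 in every array but replicate 4.

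Hsd3b1, the enzyme that makes progesterone, was bright at every stage. Its signals lay between 6.54 and 7.14 at NC1 and between 6.73 and 7.28 at C1, and the change was 0.12 (95% interval -0.16 to 0.40, adjusted p = 0.735). The oestrogen genes gave wide and narrow intervals around 0. Cyp19a1 changed by 0.43 (95% interval -0.48 to 1.34, adjusted p = 0.696) and Hsd17b1 by -0.01 (95% interval -0.34 to 0.31, adjusted p = 0.984). Cyp17a1 changed by -0.29 (95% interval -0.65 to 0.07, adjusted p = 0.426).

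Star, the cholesterol carrier, was seen in few juvenile arrays. On its brighter probe the signals were -3.93, -3.82, -5.47, -5.44 and -5.18 at NC1, where only replicates 1 and 2 were well above background. At C1 they were 2.27, 0.74, -0.99, 1.40 and 1.17, and all were well above background. The groups did not overlap, and since most NC1 signals were not well above background the difference of this probe is given with no test. The other Star probe was seen in no NC1 array and in all C1 arrays, at 0.55, -0.93, -2.52, 1.74 and -0.12. It was at least 22.1-fold higher at C1, from the C1 mean and, for each NC1 array, the detection limit or the probe's own signal, whichever was higher. Without C1 replicate 3 this bound was 5.03 on the log2 scale against 4.47 with it, without C1 replicate 4 it was 3.97, and with normexp background correction it was 3.40. Star had to differ between stages to fail the validity filter as it did, so its change is not counted with the 4 genes above.

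Within the 4 slides, each of which held all stages, Star, Cyp11a1, Akr1c18, Fdx1 and Fdxr were higher at C1 than at NC1 in 4 of 4. The NC1 and C1 arrays did not overlap for these genes, so this direction was fixed by the values above and adds no support. The within-slide change ran from 4.64 to 6.79 for Cyp11a1, from 3.75 to 7.89 for Akr1c18, from 2.23 to 2.85 for Fdx1 and from 0.40 to 1.19 for Fdxr. Without C1 replicates 3 and 4 together, an alternative chosen after seeing the data, the same 4 genes were called and Cyp11a1 changed by 5.84.

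A corpus luteum list, whose genes granulosa cells exposed to LH can also express, was examined at the same step. Of 5 valid genes of 7 listed, 4 were called higher at C1 than at NC1 and none was called lower, with a median change of 2.55 against -0.03 over all valid probes, of which 1.75% were called higher. Sfrp4 rose by 7.24, Prlr (the prolactin receptor) by 3.03, Hsd17b7 by 2.55 and Scarb1 by 1.43. Ptgfr and Lhcgr, the receptors for prostaglandin F2-alpha and LH, were seen in no NC1 array and in 5 of 5 C1 arrays, where Ptgfr lay between -0.71 and 1.30 and Lhcgr between -1.98 and -0.36. From C1 to C2, 1 luteal gene was called higher (Parm1) and 1 lower (Prlr, -1.45), where 25.4% of all valid probes were called higher and 22.2% lower. Lhcgr was seen in 3 of 5 C2 arrays, between -4.47 and -3.12 over all 5. The log2 summed level of the list was 3.74 to 4.59 at NC1, 5.33 to 6.37 at C1 and 6.39 to 6.63 at C2.

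Among the C1 arrays the lowest value of all 7 listed luteal genes was in replicate 3, which was also the lowest for Star, Cyp11a1 and Akr1c18. Hsd17b7 showed it most clearly, with 1.45, 1.34, -1.25, 1.37 and 1.50 in C1 replicates 1 to 5 and -1.90 to -1.46 at NC1. Fdx1 and Fdxr were lowest in other C1 arrays (replicates 4 and 2). The part of luteal cells or of LH exposure in these changes was not tested. Red blood cell genes moved the other way, with 3 of 4 valid genes called lower at C1, against 0.768% of all valid probes. Their changes were -3.42 for Hbb-b2, -3.12 for Hba-a1 and -2.84 for Hba-a2. In limma, 0 of 5 valid theca and stroma genes were called between NC1 and C1, with 3 at an unadjusted p under 0.05 and a median change of -0.77. The limma counts were also 0 of 7 for granulosa and cumulus genes, 0 of 3 for oocyte genes and 0 of 2 for endothelial genes, with 0 at an unadjusted p under 0.05 in each, and 0 of 4 for oviduct epithelium, with 1 at that level. Of 3 valid leukocyte genes Cd74 was called (1.97 higher), where 1.75% of all valid probes were called higher.

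**Figure D2:**
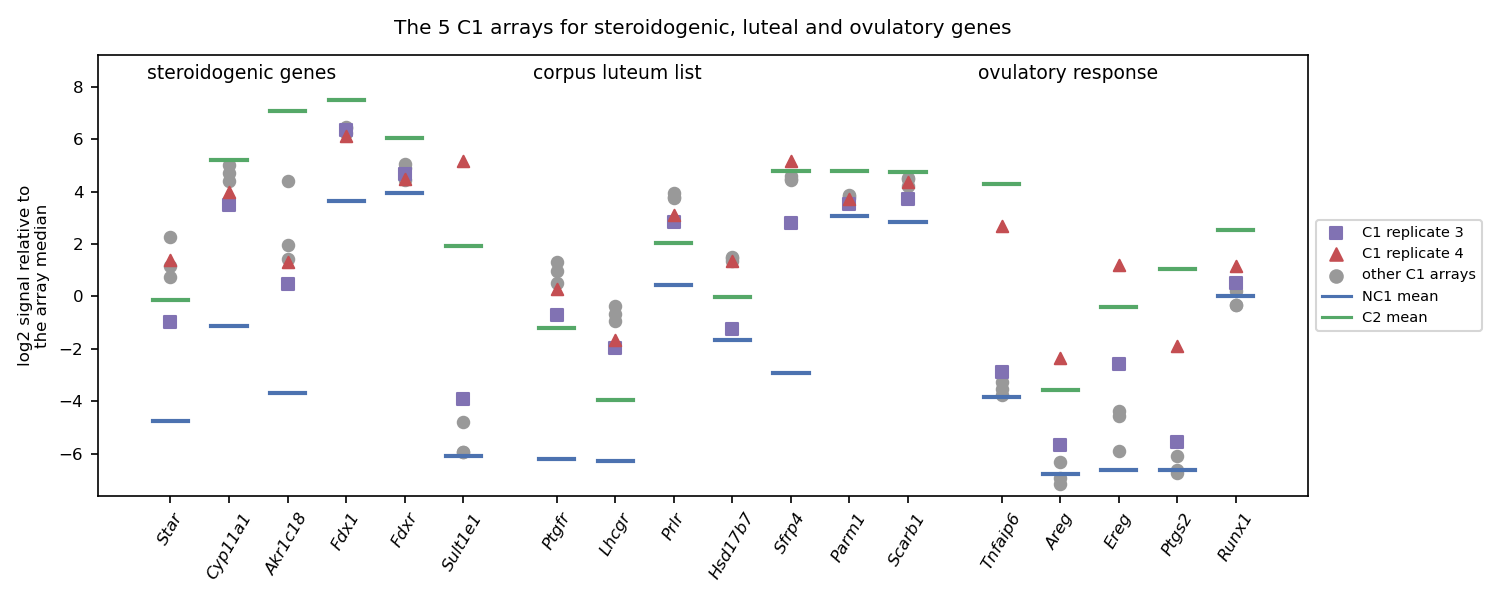
Log2 signal relative to the array median (vertical axis) of steroidogenic genes, the 7 genes of the corpus luteum list and 5 genes of the ovulatory response in the 5 C1 arrays, with the NC1 and C2 means as lines. Squares mark C1 replicate 3, lowest for all 7 luteal genes and for Star, Cyp11a1 and Akr1c18, and triangles mark C1 replicate 4, which reached 5.18 for Sult1e1 and 2.70 for Tnfaip6.

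Setting C2 against C1 asks what changes in adult cumulus cells once the oocyte has been ovulated at metaphase II. The electron carriers Fdx1 and Fdxr and the progesterone-inactivating Akr1c18 rose, while the genes of androgen and oestrogen synthesis, Cyp17a1, Cyp19a1 and Hsd17b1, fell. Of 8 valid genes 6 were called, 3 in each direction, in a comparison that called 47.6% of all valid probes (25.4% higher and 22.2% lower). The 75% of the listed genes that were called is to be read beside that background.

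Akr1c18 reached 7.42, 7.08, 6.92, 6.83 and 7.14 at C2. These arrays were close together, with an SD of 0.23 against 1.49 at C1, and every C2 array was above every C1 array. The change was 5.16 ± 0.51 (35.8-fold, adjusted p = 2.2e-07), which 5 of the 17324 valid probes exceeded. Over the whole span from NC1 to C2 its change of 10.75 ± 0.51 (adjusted p = 3.01e-11) was exceeded by 0 valid probes. Against Cyp11a1 on the same array, Akr1c18 had a mean difference of -2.54 ± 0.80 (SD, n = 5) in NC1 arrays, -2.40 ± 1.02 in C1 arrays and 1.88 ± 0.34 in C2 arrays, so the signal of Akr1c18 relative to Cyp11a1 differed at C2 by more than the spread of the arrays.

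Cyp19a1 gave 1.99, 3.11, 3.46, 2.84 and 2.30 at NC1, 4.58, 2.56, 3.11, 3.02 and 2.59 at C1, and -1.91, -1.98, -2.11, -0.76 and -0.12 at C2. The NC1 and C1 arrays overlapped, C1 replicate 1 stood above the rest, and all C2 arrays were below all others. The change from C1 was -4.55 ± 0.43 (23.4-fold lower, adjusted p = 1.53e-07), and 37 valid probes had a more negative change. Hsd17b1 behaved in the same way with less spread, at 4.34, 4.27, 4.62, 4.09 and 4.61 at C1 and 0.90, 1.09, 0.94, 1.16 and 1.62 at C2. It fell by 3.25 ± 0.16 on the log2 scale (9.48-fold lower, adjusted p = 6.21e-11). C2 replicates 4 and 5 were the highest C2 arrays for both oestrogen genes.

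Cyp17a1 gave -0.45, -0.71, -0.57, -1.28 and -1.03 at NC1, -1.04, -1.33, -1.17, -0.56 and -1.40 at C1, and -2.47, -2.37, -2.61, -2.48 and -2.61 at C2. The C2 arrays lay below all others in a span of 0.25. The change was -1.41 ± 0.17 (2.65-fold lower, adjusted p = 2.18e-06). Genes of theca and stroma fell over the same step, with 5 of 5 valid genes called lower, against 22.2% of all valid probes, and a median change of -4.78, among them Col1a2 (-5.51), Col1a1 (-4.94), Acta2 (-4.78) and Dcn (-4.69). Lum was seen in all NC1 and C1 arrays and in no C2 array. The log2 summed level of this list was 3.81 to 5.88 at NC1, 3.55 to 4.21 at C1 and -0.45 to 0.02 at C2, and its part in the change of Cyp17a1 was not tested.

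Granulosa and cumulus genes also fell at this step, with 6 of 7 valid genes called lower against 22.2% of all valid probes (median change -2.78, against 0.02), led by Amh (-4.72), Amhr2 (-3.50), Fshr (-3.10) and Inha (-2.78), while Foxl2 was not called (0.03). Their summed level was 8.03 to 8.45 at C1 and 5.90 to 6.40 at C2. All 9 listed oocyte genes were seen in every NC1 and C1 array. At C2, 3 of the 9 were seen in every array and Zp2 in none. Of 3 valid oocyte genes 1 was called lower by limma (Npm2, -2.89), and 3 had an unadjusted p under 0.05 (median change -2.50). The log2 summed level of this list was 3.68 to 5.33 at C1 and -0.64 to 4.09 at C2, and the part of oocyte RNA in the changes was not tested. Of 4 valid oviduct epithelium genes, Krt8 was called higher (1.30) and Epcam and Tppp3 lower (-1.05 and -1.01), while Pax8 was seen in no array. The log2 summed level of the oviduct list was 1.90 to 2.25 at NC1, 2.09 to 2.72 at C1 and 3.32 to 4.20 at C2, with no overlap between C1 and C2. Such a sum follows the brightest genes and is not a rise of the whole list. Of its 6 genes, 4 were seen in every C1 array and 3 in every C2 array. The part of oviduct cells in the changes at C2 was not tested. Endothelial Cdh5 was higher (1.50), and Tek was seen in no array. Of 3 leukocyte genes 0 were called by limma, with 0 at an unadjusted p under 0.05.

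Fdx1 rose again from C1 to C2, to 7.53, 7.33, 7.47, 7.55 and 7.56, a change of 1.16 ± 0.10 (2.24-fold, adjusted p = 7.83e-08). Its other probe gave 1.58 ± 0.11. Fdxr reached 6.15, 6.16, 6.15, 5.85 and 5.85, a change of 1.32 ± 0.15 (2.49-fold, adjusted p = 1.06e-06). Neither gene overlapped with C1. Fdx1 minus Fdxr within the array was 1.45 ± 0.24 (SD, n = 5) at C2, close to the value at C1, where the ranges were 1.17 to 1.71 and 1.42 to 1.79.

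Cyp11a1 lay at the threshold. At C2 it gave 5.56, 5.53, 5.36, 4.74 and 4.81, overlapping with C1, and the change was 0.88 ± 0.27 (95% interval 0.31 to 1.46, adjusted p = 0.0103). It was not called here but passed in 11 of 32 other settings, among them the median over all gene probes (1.19) and the fits without NC1 replicate 1 or 2 (0.88 in both), C1 replicate 1 (0.98) or 5 (1.05), or C2 replicate 4 (1.00) or 5 (0.98). It did not pass without C1 replicate 3 (0.68) or without C1 replicate 4 (0.80), and without both it was 0.50, the lowest value among the settings. Hsd3b1 was not called, with a change of -0.22 (95% interval -0.50 to 0.06, adjusted p = 0.166), and its C2 arrays lay between 6.64 and 6.88.

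**Figure D3:**
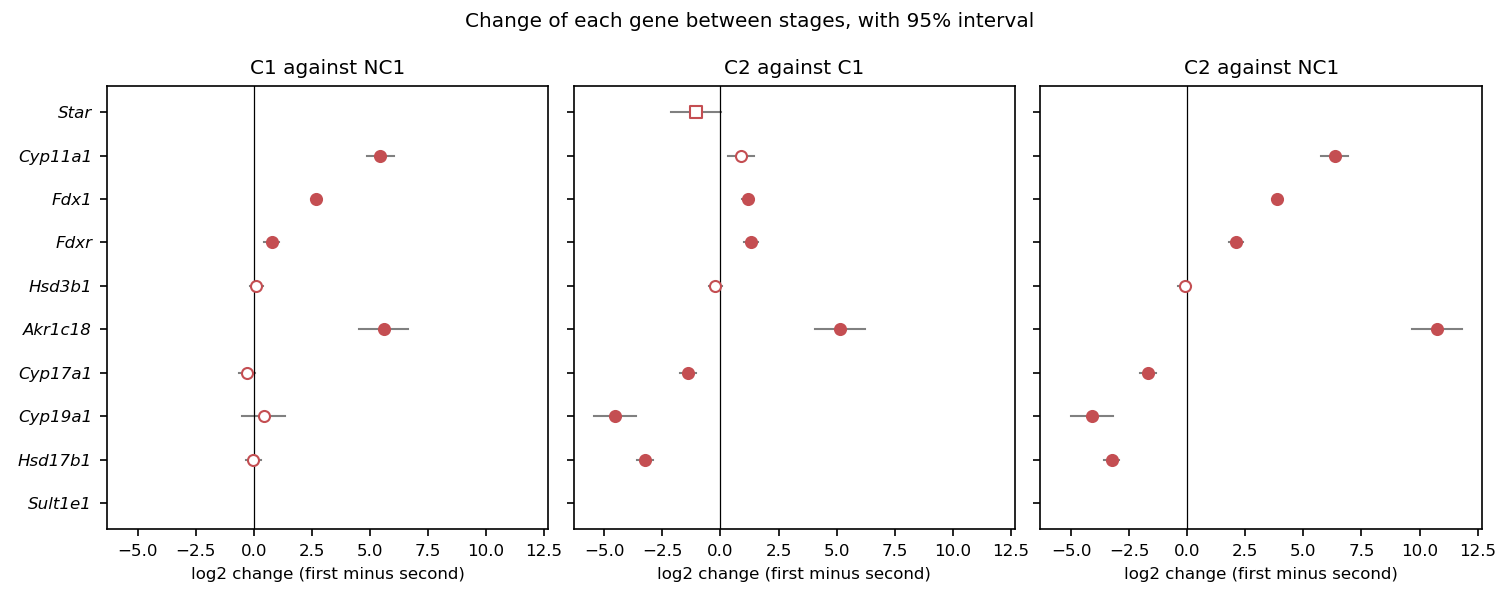
Log2 change of each gene (horizontal axis, with its 95% interval as a line) in the comparisons C1 against NC1, C2 against C1 and C2 against NC1. Filled symbols passed the test at an adjusted p under 0.01, circles are valid genes, and the square is Star from the fit over probes present in at least 1 stage. Star against NC1 and Sult1e1 are left out, since a stage was seen in fewer than 4 arrays. Cyp19a1 and Hsd17b1 sit at -4.55 and -3.25 for C2 against C1 and near 0 for C1 against NC1.

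Star at C2 gave 0.13, 0.05, 0.41, -0.35 and -0.88, within the range of the C1 arrays. Its change of -1.05 ± 0.51 did not pass the test (adjusted p = 0.0878) in the wider fit, which called 48.6% of its probes, and the other probe gave 0.12 ± 0.57 (adjusted p = 0.868). Without C1 replicate 3 the brighter probe fell by 1.52 on the log2 scale and passed (adjusted p = 0.0048). Set against Cyp11a1 on the same array, Star was at -3.63 ± 0.99 (SD, n = 5) at NC1, where most of its signals were below background, -3.40 ± 0.86 at C1 and -5.33 ± 0.30 at C2, and the C1 and C2 ranges did not overlap (-4.48 to -2.44 and -5.68 to -4.95). On the other Star probe this difference was -4.57 ± 1.45 at C1 and -5.33 ± 0.43 at C2, and the ranges overlapped (-6.01 to -2.25 and -5.85 to -4.86).

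Sult1e1, the oestrogen sulfotransferase, was well above background in all C2 arrays, at 2.73, 1.90, 1.60, 2.02 and 1.45. No NC1 array saw it, so it was at least 101.5-fold higher at C2 than at NC1 (6.67 on the log2 scale, and 5.10 with normexp background correction). At C1 it was seen only in replicate 4, at 5.18, above every C2 array, while the other C1 arrays lay between -5.95 and -3.91 and were not well above background. Against the 4 C1 arrays without replicate 4, Sult1e1 was at least 79.0-fold higher at C2 (6.30 on the log2 scale), a bound added after seeing the data, and no test is given for a gene that C1 arrays mostly did not see. In that array Akr1c18 (1.30) and Cyp19a1 (3.02) lay within the range of the other C1 arrays, and Hsd17b1 (4.09) was the lowest of the C1 arrays but above the highest C2 array (1.62).

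Within slides, C2 was above C1 for Akr1c18, Fdx1 and Fdxr in 4 of 4 slides and below C1 for Cyp17a1, Cyp19a1 and Hsd17b1 in 4 of 4. Here too the C1 and C2 arrays of these genes did not overlap, so the direction within slides adds no support. The within-slide change ran from 2.51 to 6.93 for Akr1c18, from -5.02 to -3.69 for Cyp19a1 and from -3.72 to -2.68 for Hsd17b1. For Sult1e1 it was higher at C2 in 3 of 4 slides, with -3.22 as the lowest value. Without C1 replicates 3 and 4 the same count of 6 genes was called.

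Over the whole span, C2 against NC1, 7 of 8 valid genes were called, 4 higher and 3 lower, where 51.5% of all valid probes were called, 26.5% higher and 24.9% lower. The moderated F-test over the 3 stages also called 7 of 8, against 51.5% of all valid probes. Hsd3b1 was not called in either (change -0.10, 95% interval -0.38 to 0.18). Cyp11a1 changed by 6.34 ± 0.27 (80.9-fold, adjusted p = 1e-11), Fdx1 by 3.86 ± 0.10 (14.5-fold) and Fdxr by 2.10 ± 0.15 (4.27-fold). Cyp19a1 changed by -4.12 ± 0.43, Hsd17b1 by -3.26 ± 0.16 and Cyp17a1 by -1.70 ± 0.17. The other Star probe was at least 24.1-fold higher at C2 (4.59 on the log2 scale, and 3.44 with normexp background correction).

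The successive comparisons share the C1 arrays, so the 2 steps are given side by side and not correlated. Cyp11a1 changed by 5.46 and then by 0.88, Fdx1 by 2.70 and 1.16, Fdxr by 0.78 and 1.32, and Akr1c18 by 5.59 and 5.16. Cyp19a1 changed by 0.43 and -4.55, Hsd17b1 by -0.01 and -3.25, and Cyp17a1 by -0.29 and -1.41. Cyp19a1 minus Cyp11a1 within the array, which sets aromatase against the first enzyme of the pathway, gave 3.88 ± 0.90 (SD, n = 5) in NC1 arrays, -1.15 ± 0.96 in C1 arrays and -6.57 ± 1.26 in C2 arrays, with no overlap between stages (2.63 to 4.90, -2.41 to -0.14 and -7.51 to -4.93). Hsd3b1 minus Cyp11a1 was 7.98 ± 0.43, 2.64 ± 0.74 and 1.54 ± 0.38 at these stages. Cyp19a1 minus Hsd17b1 was -1.66 ± 0.59, -1.22 ± 0.88 and -2.52 ± 0.64, and these ranges overlapped.

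**Figure D4:**
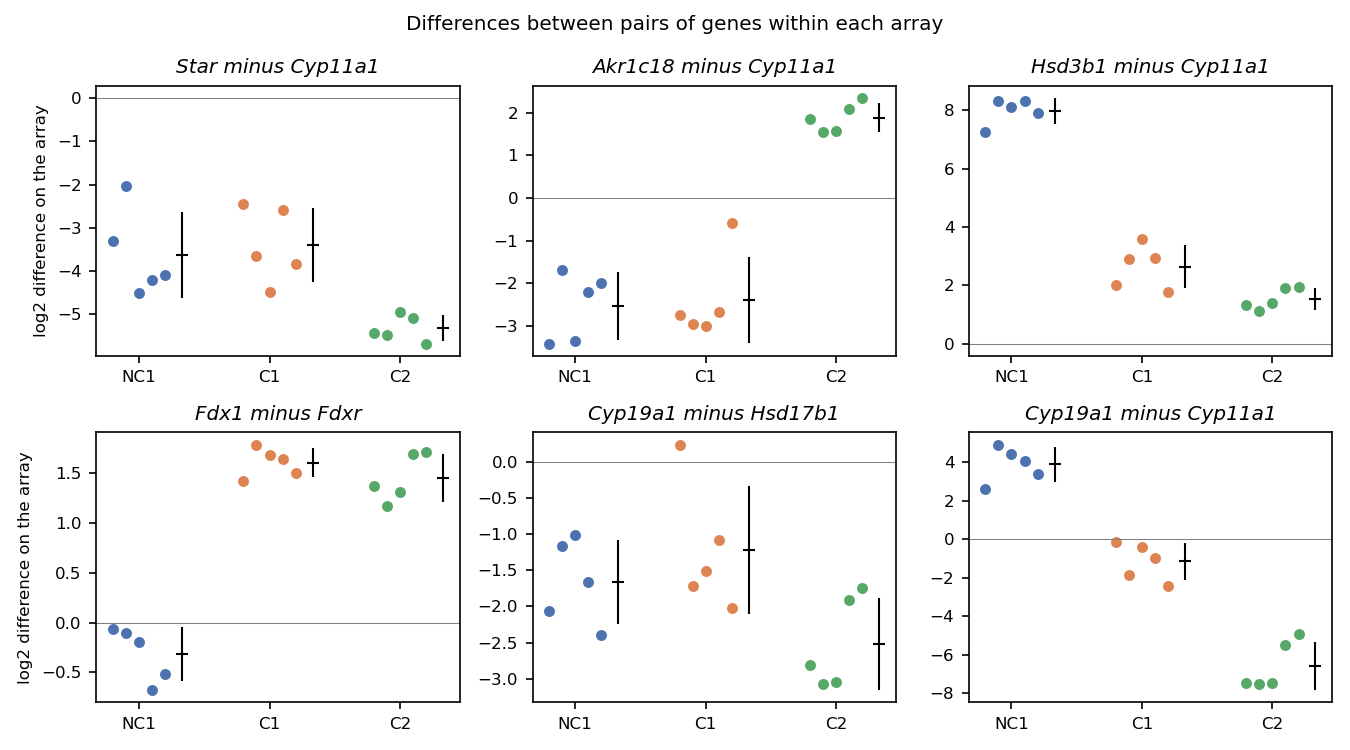
Log2 difference between the signals of 2 genes on the same array (vertical axis) for 6 pairs, by stage, with each array as a point and the mean and SD of 5 arrays in black. Cyp19a1 minus Cyp11a1 falls into separate ranges at the 3 stages, and Akr1c18 minus Cyp11a1 is above 0 only in the C2 arrays. Only the change between stages can be read, not the level of a probe against the other.

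Other scalings moved all probes together. The median over all gene probes, which lies near background, moved the median change of the valid probes to -0.14 for C1 against NC1, 0.33 for C2 against C1 and 0.19 for C2 against NC1, and spike-in scaling moved it to 0.11, -0.10 and 0.00. The share of called probes that were higher went from 69.6% to 89.9% with spike-in scaling for C1 against NC1. For C2 against C1 it went from 53.3% to 74.7% with the median over all gene probes and 41.3% with spike-in scaling, and for C2 against NC1 from 51.6% to 65.3% with the median over all gene probes. On the probe that stands for each gene, only Hsd3b1 and Hsd17b1 changed sign under any of the settings run, in comparisons where they were not called.

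Genes that bring cholesterol to the pathway were next examined as a list of 10, all of them valid. From NC1 to C1, 4 were called higher and none lower (median change 0.81, against -0.03 over all valid probes, of which 1.75% were called higher). Among them the HDL receptor Scarb1 rose by 1.43, the lipid transfer protein Stard5 by 1.31 and Tspo, a protein of the outer mitochondrial membrane, by 0.94. Scarb1 is also among the corpus luteum genes called above, so the counts of these lists are not separate. From C1 to C2, 2 were called higher, Tspo (2.08) and Npc2 (0.73), and 1 lower, Npc1 (-0.74). Over all valid probes 25.4% were called higher and 22.2% lower at this step, so the list had no excess of calls. Tspo rose at both steps, from -0.26 to 0.60 at NC1 through 0.88 to 1.42 at C1 to 2.83 to 3.62 at C2.

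Among the electron transfer partners other than the listed pair, 0 of 5 were called by limma between NC1 and C1, with 0 at an unadjusted p under 0.05. Between C1 and C2 only Cyb5a was called, with a change of -2.27 (adjusted p = 1.39e-10), where 22.2% of all valid probes were called lower. Cytochrome b5 stimulates the lyase reaction of CYP17A1 that yields androgens. Cyb5a signals lay between 6.06 and 6.57 at NC1, 6.06 and 6.35 at C1, and 3.82 and 4.23 at C2, with C2 below all other arrays.

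Of 28 further steroid dehydrogenases and reductases 13 were valid. Between NC1 and C1, Hsd17b7 (2.55) and Hsd3b6 (1.11) were called higher and none lower, where 1.75% of all valid probes were called higher. Hsd17b7 is counted in the corpus luteum list as well. Hsd3b6 is a close relative of Hsd3b1, and how far each probe also binds the other transcript was not tested. Between C1 and C2, Akr1c12 (1.03), Srd5a1 (0.80) and Hsd3b7 (0.70) were called higher, and Srd5a3 (-0.87), H2-Ke6 (-0.48) and Hsd17b10 (-0.46) lower. These 3 higher and 3 lower calls of 13 are near the shares over all valid probes (25.4% higher and 22.2% lower). Hsd11b2, which inactivates glucocorticoids, was seen in all NC1 and C1 arrays and in no C2 array, while Hsd11b1, which reactivates them, was seen in no NC1 array, in 2 C1 arrays and in all C2 arrays. Of 10 other P450s and conjugating enzymes 3 were valid, limma called 0 between NC1 and C1 (0 at an unadjusted p under 0.05), and Sts (steroid sulfatase) was called higher at C2 than at C1 (0.62). Cyp7b1, which hydroxylates steroids, was seen in all NC1 and C1 arrays and in no C2 array.

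Of 15 regulators 12 were valid, and limma called 0 between NC1 and C1, with 2 at an unadjusted p under 0.05. The median change over this step was 0.02 for the regulators, 0.08 for the electron transfer partners and -0.10 for the steroid receptors. Between C1 and C2, Nr4a2 (1.80), Cebpb (1.66) and Crem (1.58) were called higher, and Fshr (-3.10), Nr5a2 (-1.75), Gata6 (-1.22) and Nr2f2 (-1.05) lower. These 3 higher and 4 lower calls of 12 are to be read beside 25.4% higher and 22.2% lower over all valid probes. Nr5a1 was not called (0.64, adjusted p = 0.0133). Among the regulators, Fshr, Nr5a2 and Foxl2 are also counted in the granulosa and cumulus list. Nr0b1, a repressor of NR5A1, was seen in all NC1 and C1 arrays and in no C2 array. Steroid receptors were called lower in 5 of 7 valid genes between C1 and C2 (median -0.75), where 22.2% of all valid probes were called lower, led by the oestrogen receptor Esr2 (-2.47), with Pgrmc2 (-0.95), Esr1 (-0.88) and Paqr7 (-0.75), and limma called 0 of 7 between NC1 and C1, with 2 at an unadjusted p under 0.05. The progesterone receptor Pgr was seen in no NC1 or C2 array and in 1 C1 array.

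**Figure D5:**
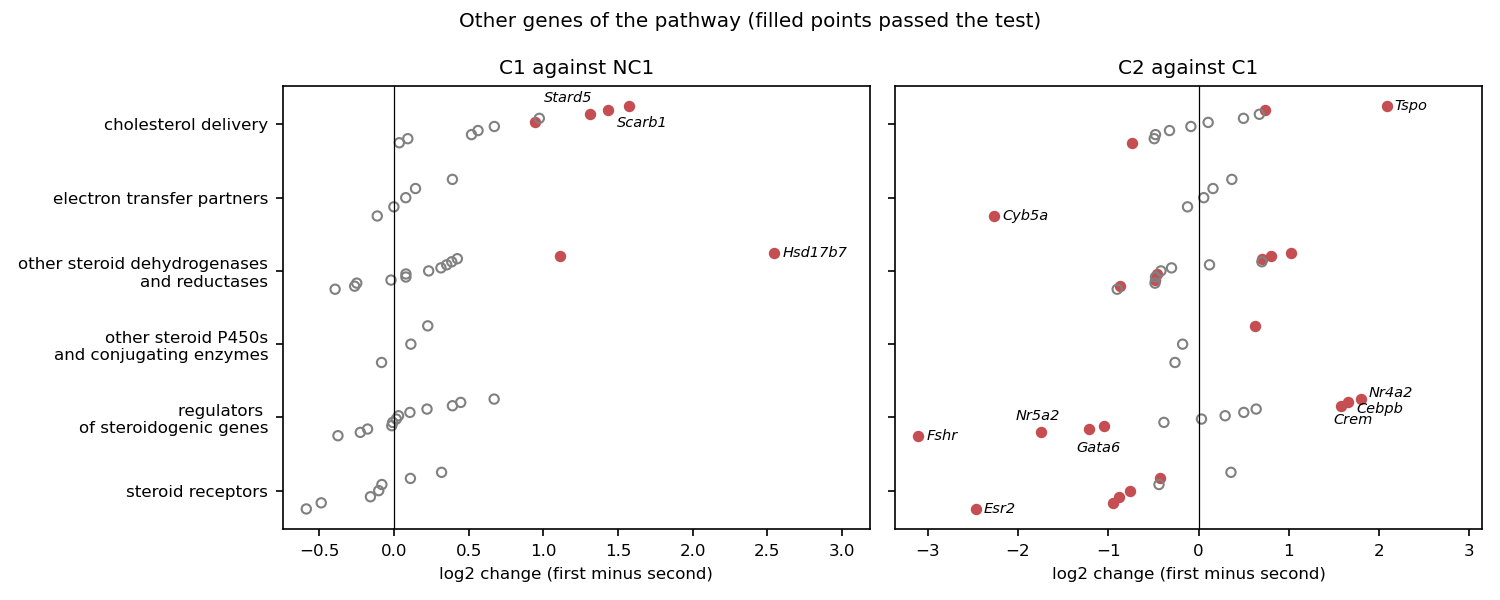
Log2 change of each valid gene of 6 other pathway lists (horizontal axis) for C1 against NC1 and C2 against C1, with a point per gene. Filled points passed the test and some of those with a change beyond 1.2 are named. The calls for C1 against NC1 fall on cholesterol delivery (4) and other dehydrogenases (2), and steroid receptors have 5 calls for C2 against C1, all lower.

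The genes whose pattern was most like each valid gene were found by Pearson correlation over the 15 arrays, which is given as a description since stage drives it. Cyp11a1 was most like Sfrp4 (r = 0.986), Gm2a (0.978) and Cox4i2 (0.973). Akr1c18 was most like Me1 (0.992) and the transporters Abcb4 (0.990) and Abcb1b (0.990), and Me1 (0.981) was also among the genes most like Fdx1, after Avpi1 (0.990) and Hao2 (0.982). Fdxr was most like Tspo (0.986), Cited4 (0.983) and Fam83g (0.982).

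Genes that were lower at C2 had other neighbours. Hsd17b1 was most like Sema3g, Mcm3 and Inhbb (0.994 for each), and Inhbb, the inhibin beta B subunit, went from a mean of 6.51 at NC1 and 6.24 at C1 to 1.52 at C2. Cyp19a1 was most like Mfsd2a (0.975), Tubb2c-ps1 (0.975) and Fam118b (0.974), and Cyp17a1 most like Gm2347 (0.970), Pnn (0.969) and BC023969 (0.965). Hsd3b1, which varied little, was most like Kctd1 (0.843), Zmpste24 (0.826) and Ikbip (0.824). Within the list itself the correlation over the 15 arrays was 0.952 for Cyp19a1 with Hsd17b1, 0.972 for Cyp11a1 with Fdx1 and 0.908 for Fdx1 with Fdxr.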

How the data were processed

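RNA of 15 pools of cumulus cells, 5 per stage, was labelled with Cy3 and hybridised to Agilent arrays in 1 colour. The deposited scanner files give a linear intensity per spot after background subtraction, which the authors produced in Agilent's Feature Extraction software (10.7.1.1 according to the headers, 10.5.1.1 in the submitters' processing notes). A normalized table by the authors holds log2 values for 20855 probes. Each of its columns equals log2 intensity plus a constant, and it served here for choosing probes and as an alternative.

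Outlier spots were dropped, the spots of a probe averaged, log2 taken, and the median over the valid probes subtracted per array. Valid probes (17324 of 39429 gene probes) passed background in 80% or more of each stage's arrays. There were 20 missing values and 0 saturated spots. A RefSeq table (GRCm38.p6) gave names through accessions for 26055 probes and the authors' symbols named 2770 more, which left 10604 without a name. Stages were compared with limma 3.58.1 in R 4.3.3, with 1 model over the 15 arrays, after the threshold in the study's methods (0.01). Star at C1 and C2 was fitted over the 20844 probes present in at least 1 stage. For genes seen in no array of a stage, a lower bound is given. Where a gene had several probes, the valid probe with the highest mean stands for it, and the other is named. Simulated data with 50 changed probes per size among 17305 gave, for C2 against C1, recovery of 12% at a log2 change of 0.5, 84% at 1 and 98% at 2. The simulation changed far fewer probes than the 47.6% called in the data. The adjustment is stricter when fewer probes change, so these shares are not the recovery in the real comparison. The number of arrays limits the precision. The normexp alternative (offset 50) used the median signal, because the files hold no mean signal.

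The genes, lists, tests and alternatives were chosen with earlier results of these data known. Genes named are the 10 of the list, up to 4 called genes per pathway or marker list and comparison with the largest change, the 3 genes most like each valid gene, and, chosen after their values were seen, further genes of these lists and of the ovulatory response. Some list genes are not reported here.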

Additional observations from a re-analysis of the deposited data

Results flagged for a closer look

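In 2 of 30 groups of 5 arrays (10 genes at 3 stages) a single array lay far from the others by Dixon's criterion at 95%, where chance gives about 1 in 20 groups. Cyp19a1 in C1 replicate 1 was at 4.58 on the log2 scale, against 2.56 to 3.11 in the other C1 arrays, with the gap at 0.726 of the whole range. Without that array the change of Cyp19a1 from NC1 to C1 was 0.08 in place of 0.43, not called in either case, and from C1 to C2 it was -4.19 in place of -4.55, called in both. Sult1e1 in C1 replicate 4 was at 5.18, against -5.95 to -3.91 in the other C1 arrays, with the gap at 0.817 of the range.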

How the results depend on the processing

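The number of valid genes called stayed within 3 to 4 for C1 against NC1, 6 to 7 for C2 against C1, 6 to 7 for C2 against NC1 and 6 to 7 in the F-test under the alternatives run, and no called change reversed. Akr1c18 was not well above background in NC1 replicate 1. It is therefore not counted in the setting limited to probes well above background in all arrays. Among the single genes, 4 changed their call under some alternative. Fdxr lost its call for C1 against NC1 in 12 of 32 settings, Cyp11a1 gained it for C2 against C1 in 11 of 32, Star in 1 of 30, and Sult1e1, whose fits include C1 arrays below background, in 6 of 30. The cause of these changes was not tested. With the replicate block 3, 6, 7 and 7 genes were called in these 4 tests, with Fdxr lost for C1 against NC1. After removal of stage means, samples with the same number correlated between -0.24 and 0.35. For NC1 with C1 the correlation was 0.34 to 0.35 in replicates 2, 4 and 5 but 0.07 and 0.06 in replicates 1 and 3, so the numbers were not taken as pairs. The lower bounds with normexp correction were 3.44 for Star at C2 over NC1 and 5.10 for Sult1e1, on the log2 scale. Over all valid probes, the 437 calls for C1 against NC1 became 271 with the median over all gene probes, 272 with the authors' table, 277 with spike-in scaling and 282 with a 2-fold minimum, the 8253 calls for C2 against C1 became 4668 with spike-in scaling and 3694 with the 2-fold minimum, and the 8916 for C2 against NC1 became 5453 and 4285. Normexp correction on the mean signal was not run, because the files hold none, and the version on the median signal was added after seeing the data. Signals near background limit Star and Sult1e1 at NC1 and Akr1c18 at NC1.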
